A study of Rattus norvegicus with 17 samples.

Results

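Rhag, Rhd, Hemgn and Car1 are 4 transcripts of red blood cell precursors, of 32494 genes counted in the spinal cord of 17 rats. They are ENSRNOG00000050121 (Rhag), ENSRNOG00000017130 (Rhd), ENSRNOG00000009436 (Hemgn) and ENSRNOG00000010698 (Car1). They were chosen, as erythroid genes other than globins, from the study's list of genes selected on the measured difference between groups C and B, so every value that contains group B or C is given as a description without a test. Only contrasts among groups A, D and E were independent of that choice.

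The study asked how 2 h of electrical stimulation of the nucleus raphé magnus (NRM), a serotonergic brainstem nucleus that projects to the cord, altered transcription 3 days after a moderate thoracic contusion (SCI). Female young-adult Sprague-Dawley rats formed 5 groups: A, sham injury and sham stimulation (n = 4); B, SCI and sham stimulation (n = 3); C, SCI and stimulation (n = 3); D, SCI and stimulation after intraperitoneal pimozide, which the study used as a serotonin receptor antagonist and which also blocks dopamine receptors, at 1 mg/kg (n = 2); and E, sham injury and stimulation (n = 5). The titles and the design text put stimulation in group E, although its treatment label reads unstimulated. All rats carried a brainstem electrode, were under isoflurane when it was used, and had received buprenorphine and gentamycin, and the cervical, thoracic and lumbar blocks of each rat, pia-arachnoid included, were combined into 1 library, so that tissue at the lesion could not be separated from tissue far from it. The methods read here name no perfusion of the vessels before dissection. Each library held between 9852873 and 14137717 counts, and levels are given in counts-per-million (CPM, scaled by the trimmed mean of M values), where 1 CPM stood for 9.60 to 14.3 counts. The identity of the tissue could not be checked, because none of 12 neuronal and glial marker symbols could be paired with an identifier.

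Red cell precursors arise in the bone marrow, and in rodents also in the spleen, and lose their nucleus before they enter the blood as reticulocytes, which still carry RNA. Rhag, the Rh-associated glycoprotein, and Rhd, the carrier of the Rh blood group antigen, are partner proteins of the Rh complex of the red cell membrane, where Rhag conducts ammonia. Hemgn (hemogen) is a nuclear protein of hematopoietic precursors, and Car1 (carbonic anhydrase 1) is a cytosolic enzyme of red cells that interconverts carbon dioxide and bicarbonate. In a piece of whole tissue, fewer cells of a type and less RNA per cell cannot be told apart.

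The proximal promoters of 3 of the 4 genes were matched by symbol in RefSeq (build GRCr8), in 4 windows of 250 bases that end just before the annotated start, and they are shown because the report compares how the genes varied across rats. Hemgn had 2 starts and no window was matched for Car1. Capitals mark the letters AGATAA or alternatively AGATAG, and likewise TGATAA or alternatively TGATAG, all of which GATA factors are known to bind, and CCNCNCCC, which is like the element of Klf1, a master factor of red cell precursors, both searched on either strand.
Rhag, chr9:27594391-27594640, minus strand: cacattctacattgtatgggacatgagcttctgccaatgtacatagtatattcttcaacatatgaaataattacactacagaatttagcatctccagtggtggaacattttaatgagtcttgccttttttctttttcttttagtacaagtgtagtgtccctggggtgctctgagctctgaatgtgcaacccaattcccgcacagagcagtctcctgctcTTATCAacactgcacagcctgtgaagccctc
Rhd, chr5:152370950-152371199, plus strand: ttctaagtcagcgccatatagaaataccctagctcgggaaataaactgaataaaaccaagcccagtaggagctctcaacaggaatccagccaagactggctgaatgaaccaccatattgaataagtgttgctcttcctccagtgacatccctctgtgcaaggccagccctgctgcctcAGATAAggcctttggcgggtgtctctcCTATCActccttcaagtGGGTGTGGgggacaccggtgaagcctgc
Hemgn, first start, chr5:65494190-65494439, minus strand: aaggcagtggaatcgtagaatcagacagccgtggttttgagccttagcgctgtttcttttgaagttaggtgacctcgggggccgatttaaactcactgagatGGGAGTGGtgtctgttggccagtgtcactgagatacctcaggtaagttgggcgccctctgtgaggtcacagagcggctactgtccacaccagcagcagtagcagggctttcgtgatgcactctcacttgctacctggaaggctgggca
Hemgn, second start, chr5:65485822-65486071, minus strand: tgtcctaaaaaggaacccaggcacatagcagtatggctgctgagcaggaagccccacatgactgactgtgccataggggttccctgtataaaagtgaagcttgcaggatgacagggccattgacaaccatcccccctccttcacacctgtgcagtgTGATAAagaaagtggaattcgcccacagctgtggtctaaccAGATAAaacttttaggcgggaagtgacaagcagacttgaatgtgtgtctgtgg
The Rhag window held 1 GATA match, at 31 bases before the start. The Rhd window held 2 GATA matches, at 72 and 45 bases, and 1 CCNCNCCC match at 28 bases. Of the Hemgn windows, the first held 1 CCNCNCCC match at 148 bases and no GATA match, and the second held 2 GATA matches at 94 and 53 bases. GATA letters of this kind were present in 27% of all 33469 promoter windows of that length and CCNCNCCC in 42.8%, so matches are a description of these letters and not of bound sites.

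All 4 transcripts were scarce. Over the 17 rats together, Rhag was counted 109 times, Rhd 264 times, Hemgn 335 times and Car1 185 times. Rhd, Hemgn and Car1 were counted in every rat, with lowest counts of 2, 1 and 1, whereas Rhag was at 0 in 4 rats. All 4 passed the filter on low counts, although Rhag exceeded 1 CPM only in group C and rat 84 of group A, and Car1 only in those rats and rat 87 of group E. The CPM values below were not divided by transcript length, so they are compared between rats and not between genes. Poisson intervals cover counting error only.

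Rhag, the membrane ammonia channel, measured 0.104, 0.314, 0.570 and 2.07 CPM in rats 70, 82, 83 and 84 of group A. In group B it measured 0.459 CPM in rat 91 and 0 in rats 94 and 95, where a count of 0, at the limit of 3 counts, allows up to 0.289 CPM in each. In group C it measured 1.04, 1.93 and 1.56 CPM in rats 89, 90 and 93. Group C lay above every rat of groups B, D and E, but the sham rat 84 of group A was the highest of all. In group D, Rhag measured 0.642 CPM in rat 75 and 0 in rat 76, which by the same limit allows up to 0.273 CPM. In group E it measured 0, 0.156, 0.0700, 0.469 and 0.350 CPM in rats 69, 85, 86, 87 and 88, and the count of 0 in rat 69 allows up to 0.255 CPM. Group means were 0.765 ± 0.892 CPM (SD, n = 4) in A, 0.153 ± 0.265 (n = 3) in B, 1.51 ± 0.447 (n = 3) in C, 0.321 ± 0.454 (n = 2) in D and 0.209 ± 0.196 (n = 5) in E. In every group but C, the SD of Rhag was close to its mean or larger.

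Rhd, the Rh antigen carrier, measured 0.313, 1.10, 1.61 and 1.09 CPM in the group A rats, in the same order of rat numbers. It measured 0.275, 0.770 and 0.867 CPM in group B and 2.17, 3.50 and 5.47 CPM in group C. Rhd was the member whose 3 group C rats lay above all 14 others, group A included. In group D, rats 75 and 76 measured 1.07 and 0.182 CPM. In group E, Rhd measured 0.850, 0.156, 0.490, 1.97 and 1.40 CPM. The means were 1.03 ± 0.537 CPM in A, 0.637 ± 0.317 in B, 3.71 ± 1.66 in C, 0.625 ± 0.628 in D and 0.974 ± 0.724 in E, so that A, B, D and E differed from each other by less than the larger SD of each pair.

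Hemgn, the nuclear protein of precursors, measured 0.104, 1.65, 3.23 and 2.86 CPM in group A. It measured 0.734, 0.673 and 0.770 CPM in group B and 2.78, 5.43 and 5.38 CPM in group C. Group C overlapped group A, since rats 83 and 84 of group A exceeded rat 89 of group C. In group D, Hemgn measured 0.855 and 0.545 CPM. In group E, it measured 0.425, 0.625, 0.210, 1.97 and 1.66 CPM. The means were 1.96 ± 1.41 CPM in A, 0.726 ± 0.0491 in B, 4.53 ± 1.52 in C, 0.700 ± 0.219 in D and 0.979 ± 0.787 in E. The 3 rats of group B, with 7 or 8 counts each, differed by less than counting noise.

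Car1, the carbonic anhydrase, measured 0.104, 0.471, 0.380 and 3.16 CPM in group A. It measured 0.183, 0.192 and 0.0963 CPM in group B and 1.74, 3.31 and 1.91 CPM in group C. In group D it measured 0.356 and 0.454 CPM. Both rats of group D lay above all 3 of group B, from 5 counts each against 2, 2 and 1, and their Poisson intervals overlapped. In group E, Car1 measured 0.0850, 0.0781, 0.350, 3.38 and 0.525 CPM. One uninjured rat in each of groups A and E, rats 84 and 87, was as high as group C, and rat 87 was the highest of all 17. The means were 1.03 ± 1.43 CPM in A, 0.157 ± 0.0531 in B, 2.32 ± 0.865 in C, 0.405 ± 0.0692 in D and 0.884 ± 1.41 in E.

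**Figure D1:**
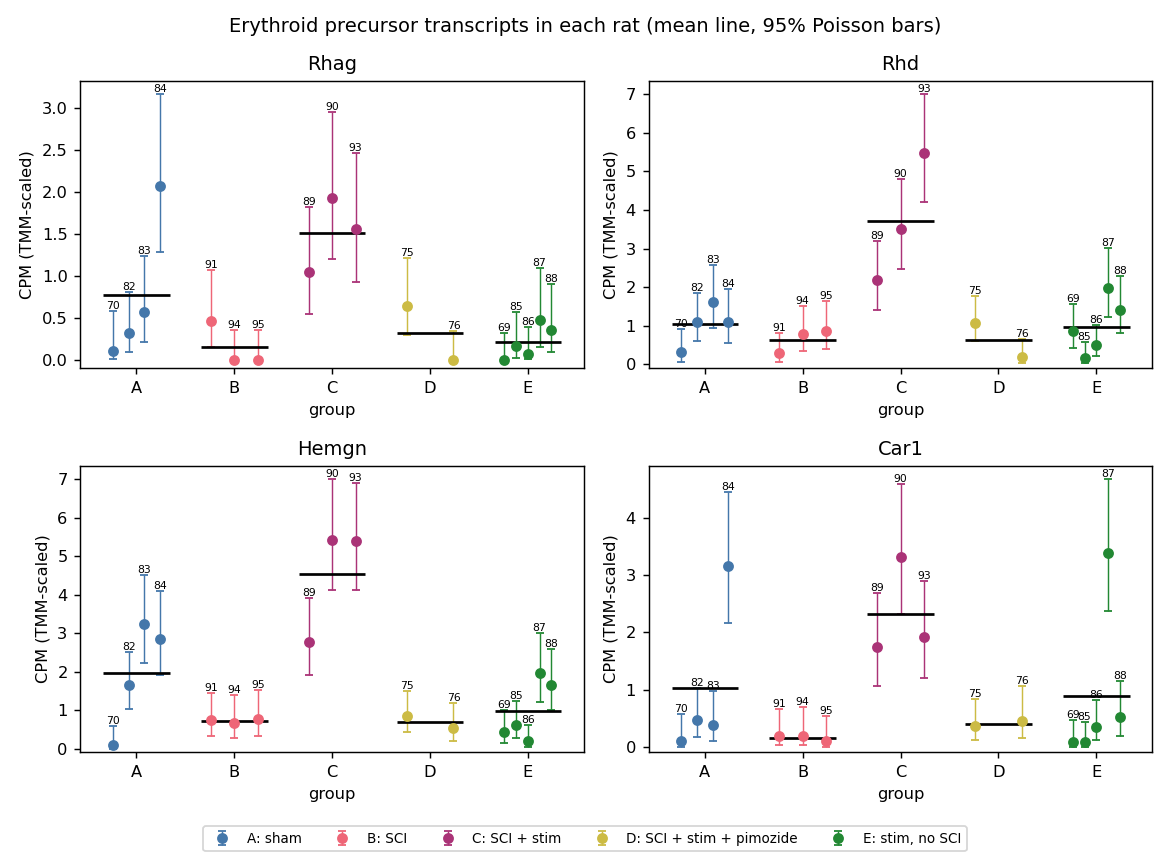
Level of each gene (CPM, vertical axis) in every rat by group (A to E, horizontal axis, rat numbers above the points), with black lines at group means and bars for two-sided 95% Poisson intervals, which cover counting error only and reach higher at a count of 0 than the limit of 3 counts. Group C lies above groups B and D in all 4 panels, and rats 84 (A) and 87 (E) reach 3.16 and 3.38 CPM for Car1.

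In order of mean level, group C came first and group A next for all 4 genes, followed by D, E, B for Rhag, E, B, D for Rhd and Hemgn, and E, D, B for Car1. Groups C and A differed by less than the larger of their SDs for Rhag and Car1. Below C, neighbours in these orders differed by less than the larger of their SDs, except B and D of Car1. Every rat of group C exceeded every rat of group B for 4 of 4 genes, beside 3.2% of the 15460 genes tested, which is the contrast that chose the genes. Group C likewise lay wholly above group D for 4 of 4 genes, beside 9.23% of all genes tested. It lay wholly above group E for 3 of 4, Rhag, Rhd and Hemgn, beside 15.2%, and above group A for 1 of 4, Rhd, beside 16.4%. These comparisons share the rats of group C, and the choice of the genes used that group, so nothing is read from the counts.

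In the model fitted across all genes, the log2 fold changes of ±st(SCI), group C over B, were 3.18 (SE 1.09) for Rhag, 2.53 (SE 0.686) for Rhd, 2.62 (SE 0.725) for Hemgn and 3.79 (SE 1.29) for Car1. Those of ±pim(st/SCI), D over C, were -2.08 (SE 1.05), -2.48 (SE 0.769), -2.65 (SE 0.825) and -2.50 (SE 1.24) in the same order of genes. Both D rats carry numbers up to 76 and all C rats numbers above 82, and with a term for that number series the values were 1.26, -1.63, -0.15 and 0.98. Both contrasts use the same 3 rats of group C, and so the opposite signs are not separate observations. The value of Rhag rested on the rats at 0, being 2.64 for C over B without rat 94 or without rat 95, and 7.13, no longer interpretable as a fold because group B was then at 0, without rat 91. For D over C, Rhag gave -1.22 without rat 76 and Rhd gave -4.27 without rat 75.

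The contrast ±SCI(0), B over A, was negative for all 4 genes, at -2.19 (SE 1.14) for Rhag, -0.70 (SE 0.726) for Rhd, -1.43 (SE 0.732) for Hemgn and -2.60 (SE 1.37) for Car1. Without rat 84 of group A these became -1.04 for Rhag and -1.02 for Car1. In ±st/SCI(0), C over A, the 4 genes were 0.99 (SE 0.777), 1.83 (SE 0.583), 1.20 (SE 0.587) and 1.18 (SE 0.886). Without rat 84, Rhag was 2.15 and Car1 was 2.77. In ±SCI(st), C over E, they were 2.86 (SE 0.863), 1.96 (SE 0.546), 2.25 (SE 0.585) and 1.45 (SE 0.843), and Car1 was 3.11 without rat 87. The difference of the stimulation effect between injured and intact rats, which contains the choosing contrast, was 5.04, 2.67, 3.67 and 4.05 on the log2 scale.

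The contrast ±st(0), E over A, asks what stimulation did without injury, in rats that played no part in choosing the genes. None of Rhd, Hemgn and Car1 passed the edgeR quasi-likelihood test at an FDR under 0.05 and a log2 fold change beyond 1 in either direction, beside 0% of 15460 genes. Over all genes, 1297 had an unadjusted p under 0.05, and DESeq2 and the edgeR exact test each called 15, none of the members among them. Rhag is given without a test in the contrasts of groups A, D and E, because it passed the filter on low counts through group C, and of the other rats only rat 84 exceeded 1 CPM. Its value was -1.86 (95% interval -3.77 to 0.05), and -0.71 without rat 84. The values were -0.13 for Rhd (95% interval -1.37 to 1.10, adjusted p = 0.973), -1.05 for Hemgn (-2.30 to 0.20, adjusted p = 0.662) and -0.27 for Car1 (-2.11 to 1.57, adjusted p = 0.959). The intervals of Rhd and Car1 reached beyond 1 log2 unit in both directions, so the data do not bound the effect to less than that in either direction. Rhag was higher in the A rat in 15 of 20 pairs of an A and an E rat, Rhd in 11, Hemgn in 13 and Car1 in 12. Single rats decided the sign for Car1, which was 1.32 without rat 84 of group A and -1.93 without rat 87 of group E. A fit of only the A and E rats, or of only the D and E rats, left out Rhag and Car1 as too low.

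Group D against group E compares injured rats given stimulation and pimozide with uninjured rats given stimulation, so that injury and drug differ at once. None of Rhd, Hemgn and Car1 passed the same test, beside 7.77% of all genes. The log2 fold changes, D over E, were 0.77 for Rhag (95% interval -1.78 to 3.33, not tested), -0.52 for Rhd (-2.14 to 1.11, adjusted p = 0.656), -0.41 for Hemgn (-2.17 to 1.36, adjusted p = 0.756) and -1.05 for Car1 (-3.69 to 1.60, adjusted p = 0.570). With 2 rats in group D, each interval spanned more than 3 log2 units. Without rat 75, group D was at 0 for Rhag, and no direction can be given, since the limit of 0.273 CPM in rat 76 lies above the group E mean of 0.209 CPM. The 2 D rats carry numbers up to 76, as do only rat 70 (A) and rat 69 (E), in which the 4 genes summed to 0.625 and 1.36 CPM, against 2.92 and 1.18 CPM in the D rats. With a term for that number series, D over E was 3.84 for Rhag, 0.18 for Rhd, 1.79 for Hemgn and 2.14 for Car1, of which only Rhag was positive without the term.

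**Figure D2:**
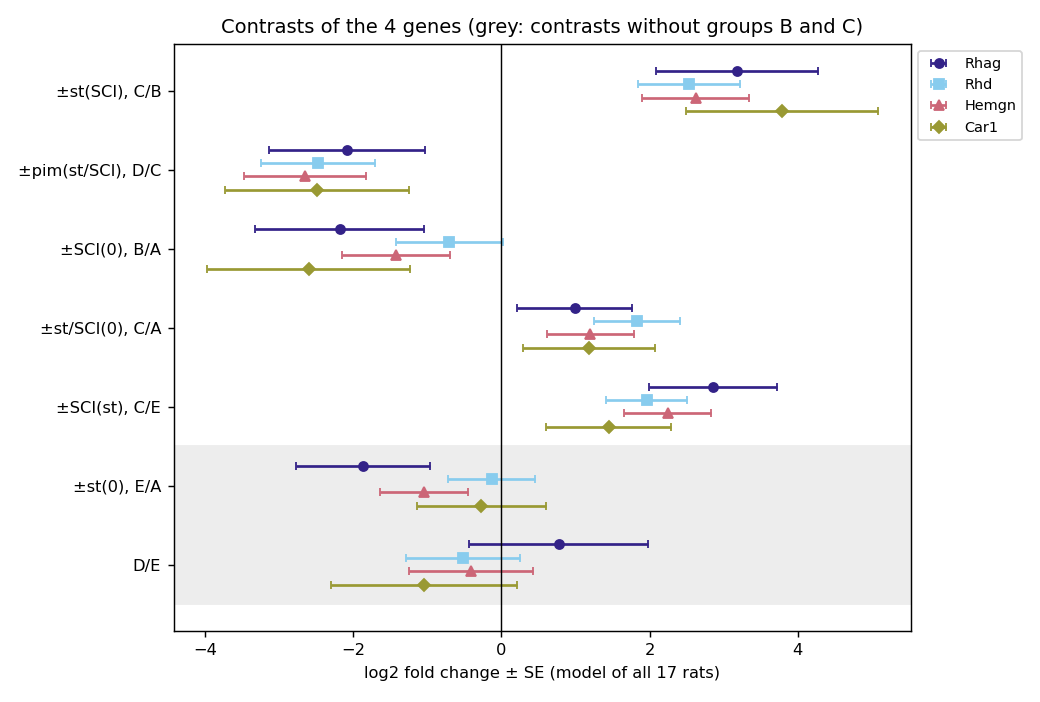
Log2 fold change with its standard error (horizontal axis) of the 4 genes in 7 contrasts (vertical axis) from the model of all 17 rats. Grey marks the contrasts without groups B and C, in which Rhd is at -0.13 and -0.52; the other rows share rats with the choice of the genes.

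The 4 genes varied widely between rats of a group. Their biological coefficients of variation were 0.807 for Rhag, 0.533 for Rhd, 0.582 for Hemgn and 0.874 for Car1, against 0.297, 0.283, 0.270 and 0.289 on the trend fitted to genes of their own abundance and a median of 0.125 over all genes. The counts of Car1 in group E varied 27.1 times as much as Poisson noise allows (chi-square per degree of freedom) and those of Rhag in group A 10.97 times. Summed over the 4 genes, the level ran from 0.625 to 9.18 CPM in group A and from 1.02 to 7.79 CPM in group E, yet only from 1.64 to 1.73 CPM in group B. It was 7.73 to 14.3 CPM in group C and 1.18 and 2.92 CPM in group D.

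The mix of the 4 transcripts also differed between rats. Car1 made up 34.4% of the counts of the 4 genes in rat 84 of group A (exact Clopper-Pearson 95% interval 24.9 to 45.0) and 43.4% in rat 87 of group E (32.5 to 54.7). It made up 6.56% in rat 83 of group A (1.82 to 15.9) and 13.3% in each of rats 82 and 88 (5.05 to 26.8). In the group C rats it made up 22.5%, 23.4% and 13.3%. Rats 84 and 87 differed in their Rhag, which was 22.6% of the counts in rat 84 (14.6 to 32.4) and 6.02% in rat 87 (1.98 to 13.5). Rat 84 thus had a large share of both Rhag and Car1, and rat 87 of Car1 only.

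**Figure D3:**
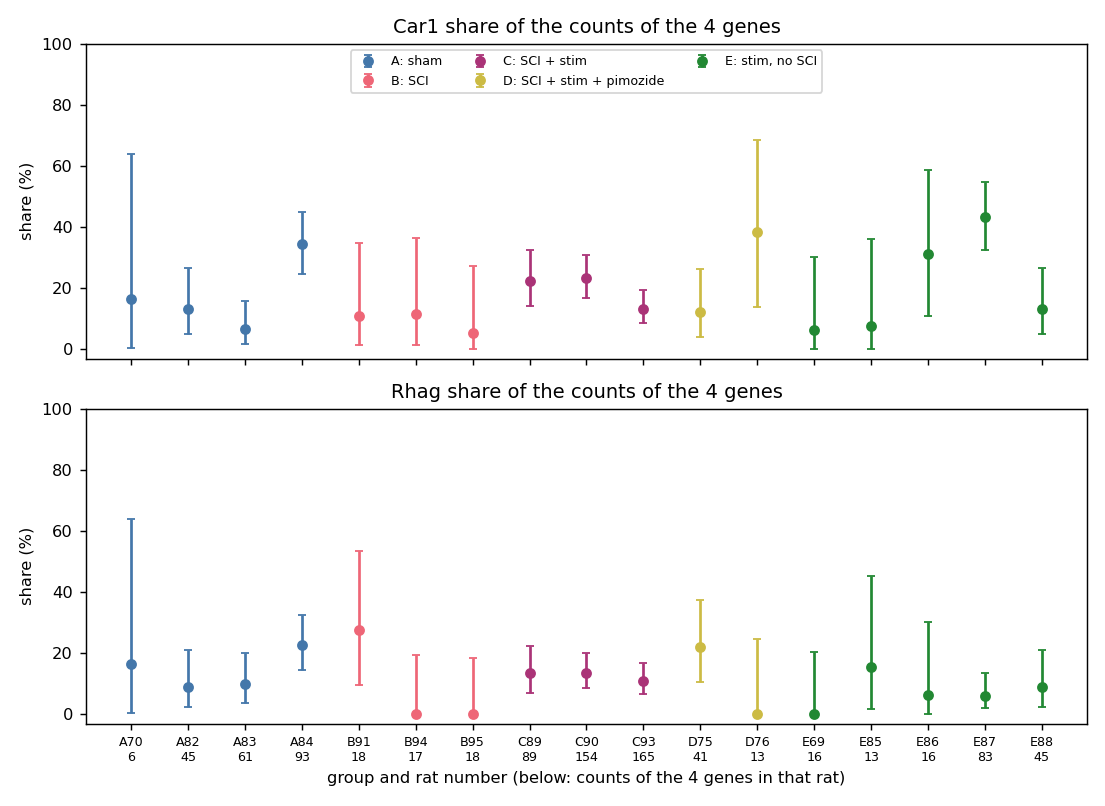
Share (%, vertical axis) of Car1 and of Rhag among the counts of the 4 genes in each rat (horizontal axis, with the counts of the 4 genes in that rat beneath), with exact 95% intervals for counting error. Car1 is highest, among rats with over 80 counts, in E87 (43.4%) and A84 (34.4%).

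Across the 9 uninjured rats of groups A and E, which the choice did not use, the 6 pairs of genes had Pearson's r from 0.477 to 0.791 on the log2(CPM + 0.5) scale. The 3 pairs with Rhag are given without a test, because Rhag passed the filter on low counts through group C. The other 3 were tested by exact permutation, two-sided and adjusted over the 6 pairs. Of these, Rhd and Hemgn passed for Pearson's r and 2 did not. For Rhd and Hemgn, r was 0.789 (exact permutation p = 0.0143, adjusted 0.0286) and Spearman's rho 0.767 (p = 0.0214, adjusted 0.0382). For Rhag and Hemgn, r was 0.791 and rho 0.917. For Rhag and Car1, r was 0.782 and rho 0.750. Of the pairs that did not pass, Hemgn and Car1 had r = 0.641 (exact permutation p = 0.0647, adjusted 0.0839) and rho 0.667 (p = 0.0589, adjusted 0.0666). Rhd and Car1 had r = 0.628 (exact permutation p = 0.0699, adjusted 0.0839), although rho was 0.800 (p = 0.0138, adjusted 0.0382). Rhag and Rhd, without a test, had r = 0.477 and rho 0.650. Single rats moved these values in both directions, and 1 rat for Rhag (84) and 2 for Car1 (84 and 87) stood beyond a gap wider than 50% of the range. Without rat 84, r rose to 0.926 for Rhag and Hemgn, 0.735 for Rhag and Rhd, 0.820 for Rhd and Hemgn and 0.711 for Rhd and Car1. It fell to 0.624 for Rhag and Car1 and 0.538 for Hemgn and Car1. Without rat 87, the largest changes were to 0.938 for Rhag and Car1 and to 0.469 for Rhd and Car1. Leaving out the 2 rats farthest from the median of the gene named first gave 0.800 for Rhd and Hemgn, 0.972 for Rhag and Hemgn and 0.889 for Rhag and Rhd. It gave 0.575 for Rhag and Car1, 0.630 for Hemgn and Car1 and 0.482 for Rhd and Car1, so the pairs with Car1 fell. In the 7 uninjured rats numbered from 82, r was 0.774 for Rhd and Hemgn, 0.755 for Rhag and Hemgn, 0.721 for Rhag and Car1, 0.519 for Hemgn and Car1, 0.594 for Rhd and Car1 and 0.432 for Rhag and Rhd. Over all 17 rats, r ran from 0.713 to 0.870, and after the group means were removed, from 0.424 to 0.740. The 4 values of a rat come from 1 library.

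**Figure D4:**
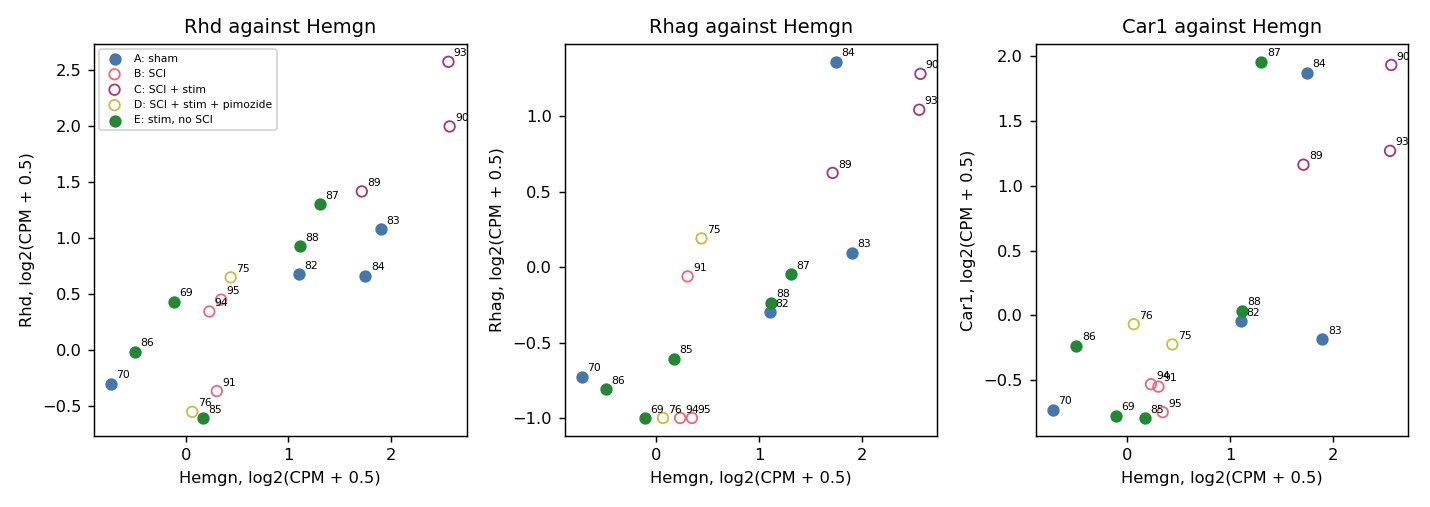
Rhd, Rhag and Car1 against Hemgn in each rat, both axes as log2(CPM + 0.5), filled points for the 9 uninjured rats and open points for injured rats. Rhd and Hemgn rise together (r = 0.789 in uninjured rats), whereas rats 84 and 87 stand above the other uninjured rats for Car1.

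Among the 14513 genes that averaged 1 CPM or more, the transcripts most like the mean pattern of the 4 genes over 17 rats were Epb42 (r = 0.958), a red cell membrane protein, Ahsp (0.929), the chaperone of alpha globin, and Slc4a1 (0.915), the anion exchanger of red cells. Next came Camp (0.908), a neutrophil granule peptide, Kel (0.886), the Kell antigen, Defa5 (0.877), Mpo (0.865), Ngp (0.860) and Np4 (0.856), granule proteins and defensins, and Klf1 (0.845). All 10 are on the same C against B list as the members, so this likeness partly repeats the choice. Over the 9 uninjured rats alone, Epb42 ranked 2 of 14513 (r = 0.958), Ahsp 7 (0.908), Camp 20 (0.884) and Slc4a1 25 (0.873), while Klf1 ranked 342 (0.692).

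Of the erythroid symbols listed for membrane, transcription factors, heme synthesis and other roles, 9 besides the members could be paired with an identifier, and all 9 are on that list. In C over B their log2 fold changes ran from 1.44 for Epb42 to 2.35 for Slc4a1, with a median of 2.00, against 2.53 to 3.79 for the 4 genes and 1.30 to 1.67 for 5 adult globins. In E over A, 0 of 9 passed the test, beside 0% of all genes. All 9 values were negative, beside 47.8% of all genes (median 0.0086), but they come from the same libraries and are not separate observations. They ran from -1.69 for Kel (adjusted p = 0.438) to -0.24 for Klf1 (adjusted p = 0.922), with a median of -0.79. In D over E, 0 of 9 passed, beside 7.77% of all genes, and 6 were positive and 3 negative, beside 46.3% of all genes positive (median -0.03), from -0.45 for Alas2, the first enzyme of erythroid heme synthesis, to 0.87 for Ermap, a membrane protein of erythroblasts, with a median of 0.34. Per 1000 CPM of globin transcripts, the 4 genes summed to 2.82 to 13.6 CPM in group A, 3.74 to 5.49 in B, 7.80 to 17.7 in C, 4.81 and 8.10 in D and 2.22 to 12.5 in E. Rats 84 and 87 had the highest of these ratios in their groups, at 13.6 and 12.5. The globins themselves summed to 221 to 1124 CPM (median 873) in group A, 301 to 438 (356) in B, 615 to 1837 (802) in C, 246 and 361 in D and 267 to 650 (613) in E. The median of group A exceeded that of group C, whereas the fitted C over A was positive for 5 of 5 globins, from 0.31 to 0.67 on the log2 scale.

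Markers of neutrophil precursors and of platelets also had their highest group medians in group C. Of 10 neutrophil precursor symbols, 6 were paired, and their summed level was 2.60 to 24.8 CPM in group A, 5.87 to 10.02 in B, 26.6 to 47.0 in C, 10.7 and 15.9 in D and 3.01 to 19.4 in E. The defining genes Elane and Ctsg were at 0 in 2 rats each. Of 12 megakaryocyte and platelet symbols, 5 were paired, and their sum was 5.00 to 18.7 CPM in A, 5.48 to 7.52 in B, 14.6 to 21.1 in C, 6.27 and 7.81 in D and 4.55 to 7.04 in E, with Ppbp and Gp1ba at 0 in 4 rats each. In both uninjured rats with high Car1, the neutrophil precursor sum was the highest of the group, at 24.8 CPM in rat 84 (others of A 2.60 to 15.0) and 19.4 CPM in rat 87 (others of E 3.01 to 11.03). The platelet sum of these rats was 7.499 and 7.04 CPM, the highest of group E in rat 87 and below rats 82 and 83 of group A in rat 84. Most of these markers are on the C against B list too, and the part of other blood cells in the levels of the 4 genes was not tested.

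**Figure D5:**
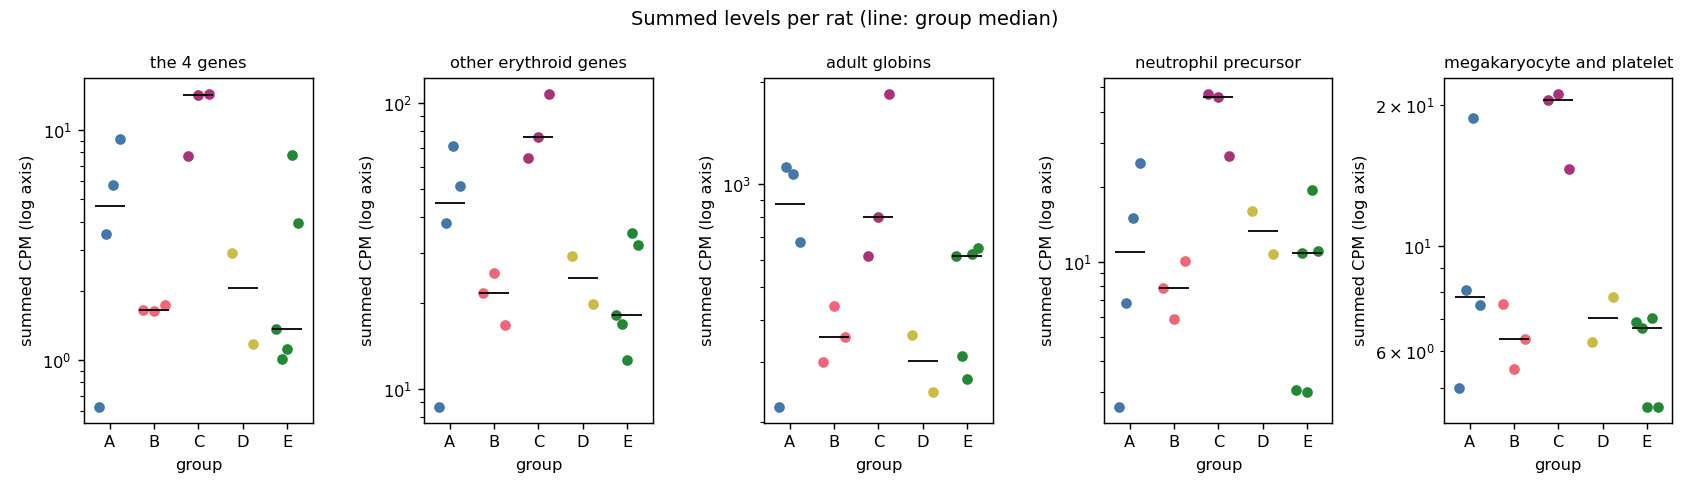
Summed level per rat (CPM, log axis) of the 4 genes and of 4 lists, the other erythroid genes, adult globins, neutrophil precursor and megakaryocyte and platelet markers, by group (A to E), with lines at group medians. The 4 genes sum to 7.73 to 14.3 CPM in group C and 1.64 to 1.73 CPM in group B.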

How the data were processed

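Total RNA of each rat was ribosome-depleted and sequenced from stranded libraries. The authors trimmed reads with Trim Galore (0.4.1) and aligned them with STAR (2.5.0a), per the submitters' processing notes to Rnor_6.0 whereas the methods name an earlier build, and deposited the raw counts per Ensembl gene that STAR gives; which strand column was taken is not given in the sources used here. Reads were counted per gene and without molecular identifiers.

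From the deposited counts, 15460 of 32494 genes passed filterByExpr, and edgeR (4.0.16, R 4.3.3) fitted all 17 rats with TMM scaling and 1 coefficient per group by quasi-likelihood. P-values were adjusted by Benjamini-Hochberg over all genes tested, and calls required both FDR < 0.05 and an absolute log2 fold change above 1. The study's own exact test and scaling by total counts, DESeq2 (1.42.0), other filters, a term for the number series and leaving out each rat were alternatives. Correlations used scipy (1.17.1), log2(CPM + 0.5) and exact permutation. Within groups, 23 pairs of rats differed by 4.19 to 38.0 times sampling noise per gene, so none was a duplicate. The fits were run on simulated data, in which changes were placed only in genes above a minimum mean count. That run does not cover genes as scarce as Rhag, Rhd or Car1.

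The members and lists were chosen with earlier results of these data known. Named genes were the 4 members, the erythroid genes of highest mean level or called in a tested contrast, and the 10 genes most like the members; Kel, Ermap, Ppbp, Gp1ba, Elane and Ctsg were added after their values were seen. Symbols were paired with identifiers for 99 genes only, so the planned test of erythroid genes outside the study's list was not run, and the planned tests of Rhag are not reported, since it passed the filter through group C.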

Additional observations from a re-analysis of the deposited data

Results flagged for a closer look

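On the CPM scale, Car1 stood apart in 1 uninjured rat of each group of more than 3. In group A, rat 84 measured 3.16 CPM, and its gap to the next rat was 0.88 of the group's range (Dixon's critical value 0.829 for 4 rats). In group E, rat 87 measured 3.38 CPM, with a gap of 0.865 of the range (critical value 0.71 for 5 rats). These were 2 of 18 groups of values examined, and chance alone marks about 1 in 20. On the log2 scale used for the correlations, the lowest, next-to-highest and highest rats of group A (70, 82 and 84) measured -0.727, -0.0431 and 1.87. Those of group E (85, 88 and 87) measured -0.791, 0.0360 and 1.96. On that scale neither gap reached its critical value, so both marks depended on the scale.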

How the results depend on the processing

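In E over A and D over E, no alternative gave Rhd, Hemgn or Car1 an adjusted p under 0.05: the adjusted p ran from 0.528 to 1 and from 0.202 to 1. With the term for the number series, D over E was 3.84 for Rhag, 0.18 for Rhd, 1.79 for Hemgn and 2.14 for Car1, and D over C was 1.26 for Rhag, 0.98 for Car1, -1.63 for Rhd and -0.15 for Hemgn; the cause was not tested, and that term leaves D to be compared with 1 rat of A and 1 of E within its own series.

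Leaving out each rat in turn, E over A ran from -2.34 to -0.71 for Rhag, the latter without rat 84, from -0.54 to 0.16 for Rhd and from -1.93 to 1.32 for Car1. D over E ran from -4.25 to 1.64 for Rhag, -2.31 to 0.18 for Rhd, -0.78 to 0.0029 for Hemgn and -1.35 to 0.61 for Car1. For Rhag the other ranges were 2.64 to 7.13 in C over B, -7.10 to -1.22 in D over C, -6.13 to -1.04 in B over A, 0.65 to 2.15 in C over A, 2.55 to 3.33 in C over E and 3.89 to 8.99 for the difference of the stimulation effects. For Rhd, D over C ran from -4.27 to -1.79. For Car1 the ranges were 3.44 to 3.96 in C over B, -2.67 to -2.15 in D over C, -2.96 to -1.02 in B over A, 0.83 to 2.77 in C over A, 1.11 to 3.11 in C over E and 2.47 to 5.71 for the difference. The sign of E over A turned without rat 83, 85 or 86 for Rhd and without rat 84, 69 or 85 for Car1, and that of D over E without rat 76 for Rhd and rat 87 for Hemgn and Car1. The ends of -4.25 and -7.10 for Rhag (without rat 75, group D at 0) and of 7.13, -6.13 and 8.99 (without rat 91, group B at 0) are fitted against a group at 0 and give no fold, and -4.25 gives no sign. A lone rat left in group D was assumed to vary like the other groups.

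Correlations in uninjured rats ran, leaving out each rat, from 0.421 to 0.735 for Rhag and Rhd, 0.767 to 0.926 for Rhag and Hemgn, 0.624 to 0.938 for Rhag and Car1, 0.729 to 0.871 for Rhd and Hemgn, 0.469 to 0.719 for Rhd and Car1 and 0.538 to 0.791 for Hemgn and Car1. Over all 17 rats they were 0.713, 0.855, 0.818, 0.870, 0.717 and 0.784 in that order. In the 7 uninjured rats numbered from 82, a choice made after seeing the data, Hemgn and Car1 gave 0.519.

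Over all genes, 0 calls in E over A became 15 with DESeq2 or the exact test, 25 with the study's stated pipeline and 49 without rat 82 of group A, and the 1202 calls in D over E became 1874 without rat 75 and 527 without rat 76. A fit of only the rats of a contrast left Rhag and Car1 untested in B over A, E over A and D over E, since they failed its filter. No paired analysis was possible because the groups share no rat numbers.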
